A study of Mus musculus with 12 samples.

Results

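Transcripts of the dystrophin-associated complex were followed in C2C12 cells, an immortal mouse myoblast line that fuses into multinucleated myotubes in low-serum medium. The genes described were Dmd, Utrn, Sgca, Sgcb, Sgcd, Sspn and Dag1, taken from a list of symbols by what they encode; the list's wording also names syntrophins, but Sspn encodes sarcospan, and the syntrophins are given among the related genes. The 7 genes were among 19057 that the arrays named, and 19 of the 45281 probes belonged to them. A probe counted as above background where its detection p was under 0.05, and it was kept for testing where this held on at least 3 of the 12 arrays. That left 9 probes of 5 members (Dag1, Sgca, Sgcb, Sgcd and Utrn) among 10653 genes, while no probe of Dmd or Sspn was kept.

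Illumina bead arrays were hybridised with total RNA of 4 groups with 3 arrays each. Day1 and Day2 cells were kept in differentiation medium (DMEM with horse serum) for 24 h and 48 h, and carry the labels of an undifferentiated state and of the beginning of differentiation. The mimic cells were transfected with a small RNA that imitates miR-206 and cultured for 24 h, and the antimiR cells with an inhibitor of miR-206 and cultured for 48 h. The Lipofectamine step stands on the labels of all 4 groups, which say neither what Day1 and Day2 cells received in it, if anything, nor which medium the transfected cells were in. All groups are of a single cell line and no group carries a genetic change. Nothing in the labels says that replicates were separate cultures, so the p-values rest on a spread between arrays that may be technical.

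The dystrophin-associated complex links the actin cytoskeleton of a muscle fibre to laminin outside it. Dystrophin (Dmd) binds actin at its amino-terminal end and the transmembrane beta subunit of dystroglycan near its carboxy-terminal end, and the heavily glycosylated alpha subunit of dystroglycan (both are cut from the Dag1 product) binds laminin, agrin and perlecan. The sarcoglycans and sarcospan stabilise this link, and in muscular dystrophies that lack a sarcoglycan the other sarcoglycans are lost from the membrane too. Utrophin (Utrn) is the paralogue of dystrophin that serves in most other tissues and at the neuromuscular junction, and it can replace dystrophin when raised in dystrophic mice. It is also a published target of miR-206.

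The sequence below is the mature microRNA whose activity 2 of the groups alter, with its seed (bases 2 to 8) in capitals; it comes from RefSeq (GRCm38.p6, chr1:20679055-20679076, plus strand). No sequence of the oligonucleotides themselves was used here.
mmu-miR-206-3p: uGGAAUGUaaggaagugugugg

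Per array, the median raw intensity was 49.5 to 63.2, and 36.7% to 40.3% of probes were above background. The myoblast label was borne out by 4 of 5 myoblast markers above background in every group (Myod1, Des, Cdh15 and Itga7; Myf5 was not above background on any array). Mimic replicate 1 stood apart from its group: its profile over the tested genes correlated at 0.993 on average with the Day1 arrays and at 0.971 with the other mimic arrays. Results for the mimic that it moves are therefore given with and without it. In bulk RNA, a change in the share of cells of a type and a change in RNA per cell cannot be told apart.

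Between 24 h and 48 h in differentiation medium, 3 of the 5 tested members rose and 0 fell: the dystroglycan gene Dag1 and the sarcoglycan genes Sgca and Sgcb. Among all 10653 genes 28.2% rose and 29% fell by the same rule (limma, Benjamini-Hochberg adjusted p under 0.05). The median log2 change was 1.67 over the 5 tested members and −0.02 over all genes; no statement about the members as a set is drawn from this.

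Dag1 was read at log2 levels of 8.47, 8.29 and 8.47 on the Day1 arrays, and of 11.11, 11.23 and 11.26 on the Day2 arrays. All Day2 values lay far above all Day1 values. The Day2 level was 6.91 times the Day1 level (means 11.20 ± 0.08 and 8.41 ± 0.10, SD, n = 3 arrays), a log2 difference of 2.79 with a standard error (SE) of 0.15 and a limma adjusted p of 4.75e-09. The other Dag1 probe, dimmer on every array, gave a log2 difference of 2.72 (SE 0.16).

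Sgca encodes alpha-sarcoglycan, the subunit that is expressed in striated muscle. Its brightest probe was at 7.50, 7.62 and 7.74 on Day1 and at 10.06, 10.03 and 9.99 on Day2, so the groups did not overlap. The Day2 level was 5.31 times the Day1 level (means 10.03 ± 0.03 and 7.62 ± 0.12, SD, n = 3 arrays; log2 difference 2.41, SE 0.47, limma adjusted p = 0.00061). That SE pools the spread of all 4 groups and was 0.16 without mimic replicate 1, with an unchanged difference and an adjusted p of 4.23e-10. The other Sgca probes gave log2 differences of 2.45 (SE 0.45) and, for the dimmest, 1.74 (SE 0.39).

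Sgcb encodes beta-sarcoglycan, which assembles with delta-sarcoglycan into the core of the sarcoglycan complex and is made outside muscle as well. It was at 8.32, 8.17 and 8.06 on Day1 and at 9.86, 9.79 and 9.92 on Day2. Again no value of a group reached the other. The Day2 level was 3.19 times the Day1 level (means 9.85 ± 0.07 and 8.18 ± 0.13, SD, n = 3 arrays; log2 difference 1.67, SE 0.14, limma adjusted p = 3.44e-07). The second Sgcb probe gave a larger log2 difference, 2.15 (SE 0.17). Tested one by one over all 19809 kept probes, all 7 kept probes of Dag1, Sgca and Sgcb rose and the kept probes of Sgcd and Utrn did not pass, where 23.6% of kept probes rose and 29.9% fell.

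**Figure D1:**
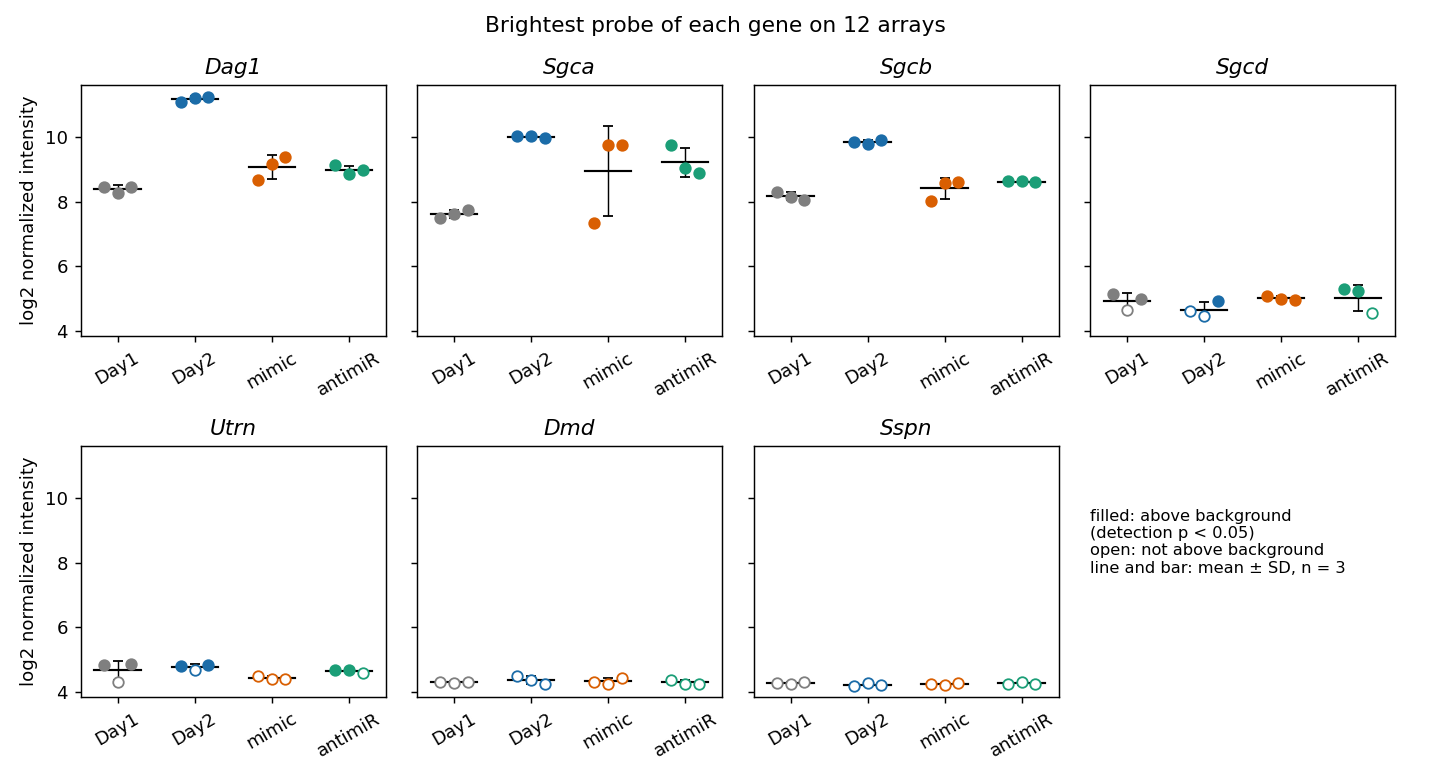
Log2 normalized intensity (vertical axis) of the brightest probe of each of the 7 genes on the 12 arrays, by group; lines and bars give the mean ± SD over 3 arrays, and open points were not above background. Dag1, Sgca and Sgcb lie highest on Day2, mimic replicate 1 lies with Day1 for Sgca (7.35) while the other mimic arrays lie at 9.76 and 9.78, and Utrn, Sgcd, Dmd and Sspn stay at or near background.

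Markers of muscle and of other cell types moved over the same arrays. The summed normalized intensity of the 4 myoblast markers was 2957 to 3117 on Day1, 17383 to 18422 on Day2, 3020 to 5611 with the mimic and 4328 to 5731 with antimiR. For 6 of 7 markers of differentiating muscle (Myog, Mymk, Acta1, Tnni2, Tnnt3 and Ckm) the sum was 161 to 236 on Day1, 51109 to 61169 on Day2, 182 to 272 with the mimic and 218 to 270 with antimiR, and the brightest Myog probe and the Ckm probe were above background on the Day2 arrays and on no other. The muscle sums thus stood highest on Day2, like the levels of Dag1, Sgca and Sgcb.

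Of the fibroblast markers only Pdgfra was kept (1 of 3; Thy1 and Tcf21 were above background on no array), at a linear level of 61.9 to 97.9 on Day1, 285 to 391 on Day2, 77.7 to 243 with the mimic and 236 to 304 with antimiR. Of the adipocyte markers only Lpl, which muscle cells also express, was kept (1 of 5; Fabp4, Plin1 and Cidec on no array, Adipoq on 2), at 289 to 330, 704 to 865, 299 to 809 and 598 to 975 in the same order. Both were low on mimic replicate 1 and high on the other mimic arrays, as Sgca was. Of the osteoblast markers 2 of 5 were kept, with sums of 45.1 to 51.7, 60.4 to 69.5, 44.9 to 50.02 and 45.6 to 58.5, while Ibsp and Sp7 were above background on no array. Of the macrophage markers 2 of 5 were kept, with sums of 132 to 159, 74.1 to 93.2, 149 to 164 and 179 to 188, while Ptprc and Adgre1 were above background on no array. Of the endothelial markers 0 of 4 were kept, with Pecam1 and Cdh5 above background on none. The part of other cell types in the results was not tested.

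The promoters of the genes that rose together are shown because the E-box, the motif CANNTG, is bound by the myogenic factors of the MyoD family. Each window runs from 250 bases before the annotated start to 50 after it, from RefSeq (GRCm38.p6), read 5′ to 3′ on the gene's strand with E-boxes in capitals; all 7 members had at least 1 window. Sgca lies at chr11:94976278-94976577, minus strand, Sgcb at chr5:73647688-73647987, minus strand, and Dag1 at chr9:108263909-108264208, minus strand.
Sgca: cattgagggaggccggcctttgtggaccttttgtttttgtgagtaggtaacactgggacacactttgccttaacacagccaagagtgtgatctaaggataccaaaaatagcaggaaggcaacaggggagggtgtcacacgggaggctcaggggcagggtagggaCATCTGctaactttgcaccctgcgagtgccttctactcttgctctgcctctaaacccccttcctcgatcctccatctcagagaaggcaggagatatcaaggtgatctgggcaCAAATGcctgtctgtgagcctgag
Sgcb: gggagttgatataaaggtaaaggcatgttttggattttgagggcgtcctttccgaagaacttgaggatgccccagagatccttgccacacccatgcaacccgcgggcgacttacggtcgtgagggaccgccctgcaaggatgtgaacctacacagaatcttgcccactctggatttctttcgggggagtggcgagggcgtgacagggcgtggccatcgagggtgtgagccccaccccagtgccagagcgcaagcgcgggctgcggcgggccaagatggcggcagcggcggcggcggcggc
Dag1: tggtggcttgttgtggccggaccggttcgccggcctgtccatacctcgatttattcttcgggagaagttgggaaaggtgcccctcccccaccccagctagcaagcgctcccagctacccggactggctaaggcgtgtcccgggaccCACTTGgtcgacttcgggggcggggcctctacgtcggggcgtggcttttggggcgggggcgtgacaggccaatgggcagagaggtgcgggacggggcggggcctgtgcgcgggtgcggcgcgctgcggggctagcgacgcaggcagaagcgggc
The Sgca window held 2 E-boxes, of which CATCTG began 86 bases before the start and CAAATG lay after it. The Dag1 window held 1, CACTTG, beginning 104 bases before the start, and the Sgcb window held 0. Another annotated start of Dag1 has its own window (chr9:108263766-108264065, minus strand, not shown). In that window the same CACTTG begins 247 bases before the start. The motif reads alike on both strands, and 72.3% of all 32851 windows of this length held at least 1, so its presence is common. The Utrn window held 7, some of them overlapping, a count that 0.177% of windows reached. A match is a run of letters and not a measured binding site.

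Dystrophin itself was not detected at either time. The brightest Dmd probe was at log2 levels of 4.30, 4.25 and 4.31 on Day1 and of 4.47, 4.37 and 4.24 on Day2, with raw intensities of 44.4 to 53.9 over all 12 arrays and a lowest detection p of 0.171. All 3 Dmd probes were not above background on any array, so no fold is given. Where in the transcripts these probes lie was not examined here, and Dmd has several promoters whose products differ at the 5′ end. The single probe of Sspn, the tetraspan-like membrane partner of the sarcoglycans, was likewise not above background on any array (raw intensity 41.3 to 52.1, lowest detection p 0.512). Without the detection filter the log2 differences of Dmd and Sspn between 48 h and 24 h were 0.07 (SE 0.07) and −0.04 (SE 0.04), with limma adjusted p of 0.498 and 0.517.

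Utrn was measured close to background. Its brightest probe was at 4.82, 4.32 and 4.85 on Day1, at 4.78, 4.66 and 4.83 on Day2, at 4.49, 4.38 and 4.39 with the mimic and at 4.67, 4.66 and 4.59 with antimiR. It was above background on 2 arrays each of Day1, Day2 and antimiR and on 0 of the mimic arrays. All mimic values lay below all Day2 and antimiR values, and they overlapped those of Day1, whose replicate 2 was the lowest of all.

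No comparison of Utrn passed. The log2 difference between mimic and Day1 was −0.24 (SE 0.14, 95% confidence interval −0.55 to 0.06, limma adjusted p = 0.271), −0.28 without mimic replicate 1 (adjusted p = 0.215), and −0.42 without Day1 replicate 2. AntimiR against Day2 gave −0.12 (interval −0.42 to 0.18, adjusted p = 0.513), and Day2 against Day1 gave 0.10 (interval −0.21 to 0.40, adjusted p = 0.583), or −0.08 without Day1 replicate 2. A target whose RNA is lowered by miR-206 would be lower with the mimic and higher with the inhibitor, and neither difference was detectable at this intensity. The arrays read RNA only, so a repression of translation would not show in them. Among the other 4 Utrn probes, the third brightest was above background on 2 antimiR arrays, the second on 1 Day2 array, and the remaining pair on none, so they were not tested. On the third brightest, the mimic values of 4.45, 4.48 and 4.55 lay above the Day1 values of 4.44, 4.30 and 4.35, the opposite order to the brightest probe, and none of these 6 readings was above background. Near background, the normexp correction with its offset compresses differences.

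Sgcd, delta-sarcoglycan, lay close to background on its brightest probe, at 5.15, 4.65 and 4.99 on Day1, 4.61, 4.45 and 4.92 on Day2, 5.09, 4.98 and 4.97 with the mimic and 5.29, 5.22 and 4.55 with antimiR. It was above background on 2 arrays of Day1, 1 of Day2, 3 of the mimic and 2 of antimiR. All groups overlapped except that the mimic values lay above the Day2 values. Its log2 difference between Day2 and Day1 was −0.27 (SE 0.20, interval −0.70 to 0.16, adjusted p = 0.275). AntimiR against Day2 gave 0.36 (SE 0.20, limma adjusted p = 0.151). This difference passed only without antimiR replicate 3, the antimiR array that was not above background (0.60, limma adjusted p = 0.0165). The other Sgcd probes were not above background on any array. Its partner Sgcb, in contrast, was above background on all 12 arrays.

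With the miR-206 mimic at 24 h, 1 of the 5 tested members rose against Day1 and 0 fell, where 4.38% of all genes rose and 4.08% fell. The question here was what added miR-206 changes, and transfection and mimic cannot be told apart. Dag1 was at 8.67, 9.19 and 9.41 with the mimic, each value above the highest Day1 value. It was 1.60-fold higher (9.09 ± 0.38 against 8.41 ± 0.10, SD, n = 3 each; log2 difference 0.68, SE 0.15, limma adjusted p = 0.0299), and the second probe gave 0.72 (SE 0.16). By themselves, both Dag1 probes and no other kept probe of a member passed, where 3.4% of kept probes rose and 3.15% fell. The call was lost without Day1 replicates 1, 2 and 3 (adjusted p = 0.0593, 0.129 and 0.113), without mimic replicates 2 and 3 (0.142 and 0.145) and without Day2 replicate 2 (0.0501), while the difference stayed between 0.52 and 0.89. With only the arrays compared in the model the adjusted p was 0.158, and with arrays scaled to a common median it was 1.00.

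Sgca split the mimic arrays, at 7.35, 9.76 and 9.78. Replicate 1 lay below every Day1 array, and replicates 2 and 3 lay just under the Day2 level of 9.99 to 10.06. Over 3 mimic arrays the log2 difference from Day1 was 1.34 (SE 0.47, limma adjusted p = 0.0825), and over replicates 2 and 3 alone it was 2.15 (SE 0.17, adjusted p = 1.67e-07). The dimmer Sgca probes showed the same split, at 6.73, 8.995 and 9.04 and at 5.50, 7.30 and 7.58. Sgcb was at 8.04, 8.60 and 8.63, with a difference of 0.24 (SE 0.14, adjusted p = 0.282) that became 0.43 (SE 0.10, adjusted p = 0.00304) without mimic replicate 1. Dag1 in that setting was higher by 0.89 (SE 0.11, limma adjusted p = 9.80e-06), so that 3 members were called in place of 1. The shares of all genes given for the mimic above are from the fit with all arrays. They are no background for counts without mimic replicate 1, and the share of all genes called in that fit is not given here. How many genes passed for the mimic depended strongly on the array left out, so nothing is read from the counts in that fit. With that array left out, 2 of the 6 kept markers of differentiating muscle rose as well. Mymk, a myoblast fusion gene, rose by 0.68 (adjusted p = 0.0039) and Tnni2, a troponin, by 0.99 (adjusted p = 0.000279). Acta1 did not pass (0.28, adjusted p = 0.418), and Myog, Tnnt3 and Ckm were not above background on any mimic array. The part of differentiating cells in the Sgca values was not tested.

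With antimiR-206 at 48 h, 2 of the 5 tested members were lower than on Day2 and 0 higher, where 24.9% of all genes were lower and 26.5% higher. The comparison asked what loss of miR-206 changes at 48 h, but inhibitor, transfection and any difference in medium cannot be told apart in it. Dag1 was at 9.13, 8.88 and 8.98, below every Day2 value. It was 4.60-fold lower (8.996 ± 0.13 against 11.20 ± 0.08, SD, n = 3 each; log2 difference −2.20, SE 0.15, limma adjusted p = 6.25e-08). Sgcb was at 8.65, 8.64 and 8.61, 2.33-fold lower than on Day2 (log2 difference −1.22, SE 0.14, adjusted p = 8.31e-06). Its second probe gave −1.71 (SE 0.17). By themselves, the 4 kept probes of Dag1 and Sgcb were lower and none of Sgca passed, where 20.8% of kept probes were lower. Scaling the arrays to a common median instead, the Sgcb difference was −0.71 and no longer passed (adjusted p = 0.411).

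Sgca was at 9.75, 9.04 and 8.90 with antimiR, below the Day2 range on each array, with replicate 1 nearest to it. The log2 difference was −0.80 (SE 0.47, interval −1.82 to 0.22, adjusted p = 0.181), and it passed without mimic replicate 1, whose spread enters the SE (SE 0.16, adjusted p = 0.000279), and with only the arrays compared (adjusted p = 0.00272). The 3 probes of Sgca differed in this comparison, at −0.80, −1.05 and −0.40.

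Against Day1, which shares its arrays with the mimic and the Day2 comparisons, antimiR cells had 3 of the 5 tested members higher and 0 lower, where 12.9% of all genes were higher and 9.78% lower. Culture time and treatment differ together in this comparison and cannot be told apart. Sgca was 3.06-fold higher (log2 difference 1.61, SE 0.47, adjusted p = 0.0279), Dag1 1.502-fold (0.59, SE 0.15, adjusted p = 0.0184) and Sgcb 1.37-fold (0.45, SE 0.14, adjusted p = 0.0382). The antimiR values of all 3 lay above every Day1 value, but the share of all genes that separate in this way was not counted. By themselves, both Dag1 probes, all 3 Sgca probes and 1 of the 2 Sgcb probes (adjusted p = 0.0415, against 0.0866 for the other) were higher, where 10.3% of kept probes were higher and 9.11% lower. The number of these genes that passed was 0 without Day1 replicate 2, Day1 replicate 3 or antimiR replicate 1, where the adjusted p of Dag1 was 0.0778, 0.0567 and 0.0822, that of Sgca 0.0829, 0.0773 and 0.122, and that of Sgcb 0.108, 0.138 and 0.11. Without Day1 replicate 1 Sgca lost its call (0.0713), without antimiR replicate 2 Sgca (0.0533) and Sgcb (0.0845) did, without antimiR replicate 3 Sgcb did (0.0785), and so did Sgcb without Day2 replicates 2 and 3 (0.0532 and 0.052). With median scaling Dag1 and Sgcb did not pass (0.75 and 0.854), without the detection filter Sgca and Sgcb did not (0.0503 and 0.0616), and with the mean of its probes Sgcb did not (0.0545). Without mimic replicate 1 the adjusted p were 0.000189, 9.49e-07 and 0.00106 for Dag1, Sgca and Sgcb.

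The order of the group means was the same for Dag1 and Sgcb at its ends, lowest on Day1 and highest on Day2. For Dag1 the mimic and antimiR means, 9.09 and 8.996, lay within their spread of each other, as did 8.42 and 8.63 for Sgcb. The Sgca means were 7.62 on Day1, 8.96 with the mimic, 9.23 with antimiR and 10.03 on Day2. Here too the mimic and antimiR levels overlapped, but through mimic replicate 1 (7.35) alone. Mimic replicates 2 and 3 (9.76 and 9.78) lay above the highest antimiR value of Sgca (9.75). Those of Dag1 (9.19 and 9.41) also lay above its highest antimiR value (9.13). For Sgcb they did not, at 8.60 and 8.63 against 8.61 to 8.65.

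**Figure D2:**
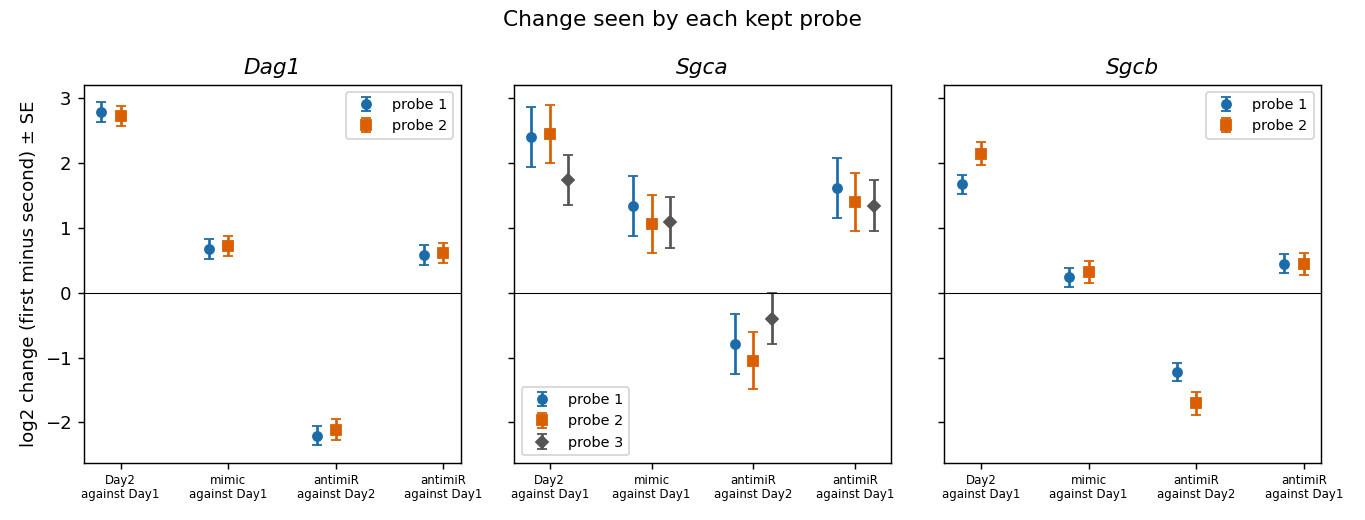
Log2 difference (vertical axis, first group minus second) ± SE of every kept probe of Dag1, Sgca and Sgcb in 4 comparisons, each probe tested by itself; probes are numbered from the brightest. All probes of a gene lie on the same side of 0 in each comparison, and between Day2 and Day1 the probes of Sgca spread from 1.74 to 2.45 and those of Sgcb from 1.67 to 2.15.

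Of 10 syntrophins, dystrobrevins and signalling partners inside the cell 7 were tested. Between 24 h and 48 h 2 rose and 1 fell (median log2 change 0.16), where 28.2% of all genes rose and 29% fell. Cav3, the muscle caveolin that binds dystroglycan, was at background on all Day1 arrays and at least 8.27-fold higher on Day2 (7.74 ± 0.03 against 4.29 ± 0.02, limma adjusted p = 1.01e-11). Dtna, alpha-dystrobrevin, rose from 6.70 ± 0.06 to 9.22 ± 0.04 (log2 change 2.52, SE 0.10). Its relative Dtnb fell by 0.72 on the log2 scale (SE 0.16, limma adjusted p = 0.00149), and with median scaling it did not pass (adjusted p = 0.205). Among other sarcoglycan genes, the probe of Sgce was above background on 1 array and that of Sgcz on none. Nos1, the nitric oxide synthase that the complex anchors in muscle, was not above background on any Day1 or Day2 array.

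Of 11 genes listed for matrix ligands of dystroglycan, here called ligands, 9 were tested. The list also counts laminin beta and gamma chains (Lamb1, Lamb2 and Lamc1) and the laminin partner Nid1, which do not themselves bind dystroglycan. Between 24 h and 48 h, 8 rose and 0 fell (median log2 change 1.06, against −0.02 over all genes, of which 28.2% rose). Agrn, agrin, which clusters acetylcholine receptors, rose by 2.67 (SE 0.10), from 8.65 ± 0.17 to 11.32 ± 0.09. Bgn, the proteoglycan biglycan, rose by 1.82 (SE 0.21), Hspg2, perlecan, by 1.69 (SE 0.18) and Lama5, a laminin alpha chain, by 1.37 (SE 0.16). Of 14 cytoskeletal and integrin linkers 11 were tested, 8 rose and 0 fell (median 1.36). Itga7, the laminin receptor subunit that works beside the dystrophin complex, rose by 3.34 (SE 0.10), Des, the muscle intermediate filament desmin, by 2.80 (SE 0.18), Sptbn1, a spectrin, by 1.74 (SE 0.16) and Vcl, vinculin, by 1.51 (SE 0.14). After scaling to a common median 2 of the 9 ligands and 4 of the 11 linkers passed, all of them higher, and Hspg2, Lama5 and Vcl lost their calls (adjusted p = 0.0534, 0.119 and 0.0973). Des and Itga7 also stand on the list of myoblast markers.

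Of 18 genes listed for the glycosylation of dystroglycan 14 were tested. The list also holds genes that act more widely in glycosylation, such as Dolk, Gmppb and Dpagt1, and is not confined to the laminin-binding sugar. Between 24 h and 48 h, 5 rose and 5 fell (median −0.25), near the share of all genes in each direction (28.2% and 29%). B4gat1, which makes the primer of the matriglycan chain, rose by 0.99 (SE 0.13) and Pomgnt2 by 0.71 (SE 0.16), while Dpm2, a subunit of dolichol-phosphate-mannose synthase, fell by 0.86 (SE 0.11) and Pomt1, a protein O-mannosyltransferase, fell by 0.69 (SE 0.16). With median scaling 0 of the 14 passed in limma, B4gat1, Pomgnt2, Dpm2 and Pomt1 among them (adjusted p = 0.413, 0.545, 0.168 and 0.0987). Of 9 genes named in the literature as regulators of utrophin 7 were tested, and 1 rose and 2 fell, no more than the share of all genes. Ppargc1a, a coactivator of mitochondrial genes, was not above background on Day1 and at least 2.07-fold higher on Day2. Gabpa and Gabpb1, the subunits of the factor that acts on the utrophin N-box, fell by 1.15 (SE 0.18) and 1.06 (SE 0.14), Gabpb1 losing its call with median scaling (adjusted p = 0.0583).

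**Figure D3:**
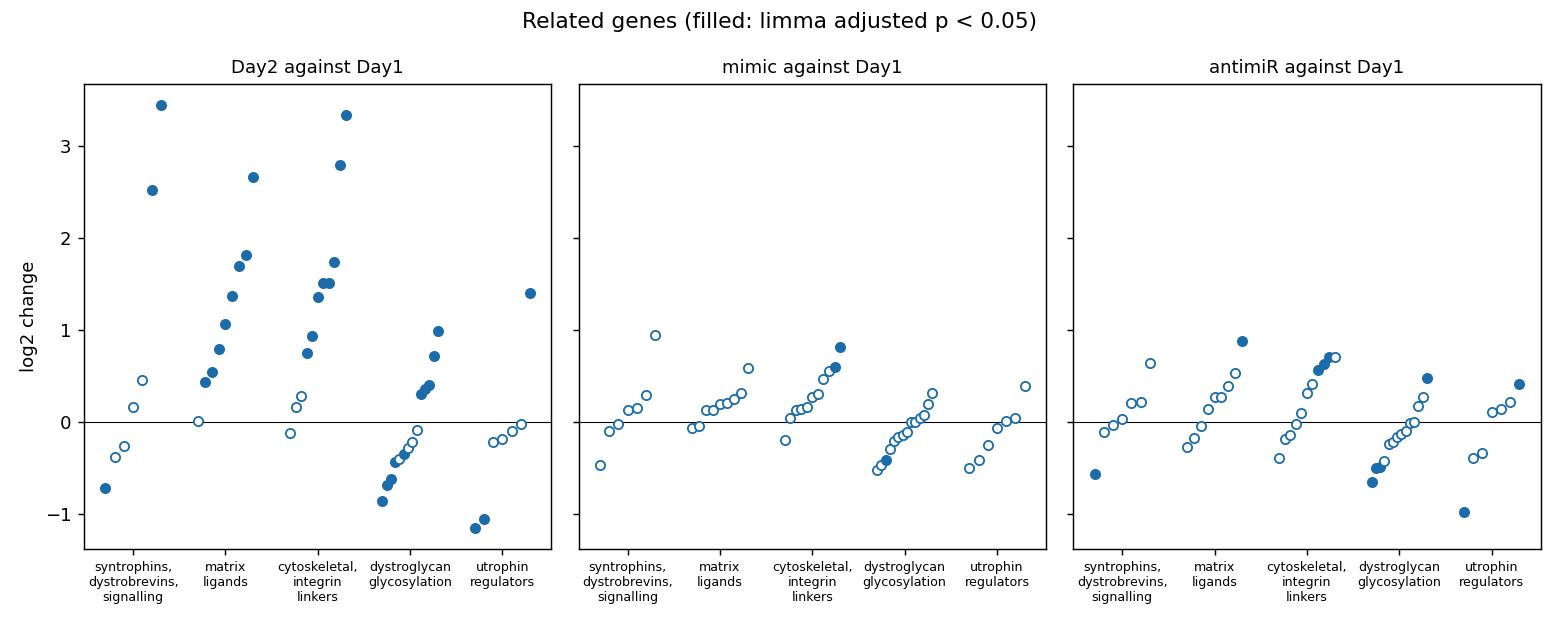
Log2 change (vertical axis) of each tested gene of 5 related lists, in 3 comparisons that share the Day1 arrays; each point is a gene, sorted by value within its list, and filled points passed a limma adjusted p of 0.05. Between Day2 and Day1, 8 of 9 matrix ligands and 8 of 11 linkers rose, while 5 of the 14 glycosylation genes rose and 5 fell; against Day1 the mimic and antimiR panels hold few filled points.

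Between mimic and Day1, 2 genes of these lists rose and 1 fell, where 4.38% of all genes rose and 4.08% fell. Itga7 (log2 change 0.60, SE 0.10, limma adjusted p = 0.0122) and Sptbn1 (0.82, SE 0.16, limma adjusted p = 0.0216) rose among the 11 linkers. Rxylt1, a glycosyltransferase, fell by 0.41 (SE 0.10, limma adjusted p = 0.0383) among the 14 glycosylation genes. Of the other lists, 0 of 9 ligands, 0 of 7 syntrophins and partners and 0 of 7 utrophin regulators passed in limma. Without mimic replicate 1 the counts were 4 higher and 0 lower for the linkers and 1 and 4 for the glycosylation genes. They were 1 and 1, 1 and 1, and 1 and 2 for the other lists in that order. The shares of all genes above are from the fit with all arrays and are no background for these counts, so nothing is read from the counts. Among the partners, Sntb2 was at 6.51, 8.11 and 8.28 with the mimic. Its log2 change was 0.95 (limma adjusted p = 0.0921) with all arrays and 1.51 (limma adjusted p = 4.23e-06) without mimic replicate 1. For Dtnb these were −0.47 (limma adjusted p = 0.0739) and −0.64 (limma adjusted p = 0.00205). The log2 changes of Itga7, Sptbn1 and Rxylt1 without mimic replicate 1 were 0.62, 1.00 and −0.47 (limma adjusted p = 0.00025, 2.07e-05 and 0.00159). Itga7 lost its call without Day1 replicates 2 and 3 or mimic replicate 3. Sptbn1 and Rxylt1 did so without any Day1 array or mimic replicates 2 or 3, and Rxylt1 also without Day2 replicates 2 or 3 or antimiR replicate 3. All 3 lost it with median scaling (adjusted p = 1.00) and with only the arrays compared (adjusted p = 0.152, 0.152 and 0.158), and Itga7 also with the mean of its kept probes (adjusted p = 0.0563).

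With antimiR against Day2, 8 of 11 linkers and 5 of 9 ligands were lower and 0 higher, with median log2 changes of −1.03 and −0.59, where 24.9% of all genes were lower and 26.5% higher. Without mimic replicate 1 the counts were 9 and 7 lower. The shares of all genes above do not apply to that fit, whose own shares are not given here, so nothing is read from these counts. Among the linkers, Itga7 was lower by a log2 change of −2.77 (SE 0.10), Des of −2.17 (SE 0.18), Vcl of −1.42 (SE 0.14) and Plec, the cytolinker plectin, of −1.13 (SE 0.17). Among the ligands, Agrn changed by −2.40 (SE 0.10), Lama5 by −1.54 (SE 0.16), Hspg2 by −1.42 (SE 0.18) and Bgn by −0.94 (SE 0.21). Dtna changed by −2.31 (SE 0.10), and Cav3, not above background on any antimiR array, was at least 8.52-fold lower (adjusted p = 9.82e-12).

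After scaling to a common median 2 linkers and 1 ligand still passed, all lower: Itga7, Des and Agrn did, as did Dtna and Cav3 among the partners, and Vcl, Plec, Lama5, Hspg2 and Bgn did not (adjusted p from 0.169 to 0.785). Sntb2, a syntrophin, was higher by 0.90 (SE 0.35, limma adjusted p = 0.0442). It lost its call with median scaling (limma adjusted p = 0.0648) and when any array of Day1, Day2 or antimiR was left out. The call was also lost without background correction or the detection filter, with a larger offset and with the authors' values. Without mimic replicate 1, whose spread enters the SE, the Sntb2 difference was the same and the limma adjusted p was 7.44e-05. Of the 14 glycosylation genes 3 were higher, led by Dpm2 (0.85, SE 0.11), and 5 lower, led by Pomgnt2 (−0.87, SE 0.16), B4gat1 (−0.72, SE 0.13) and Pomgnt1 (−0.57, SE 0.13), near the shares of all genes. Of the 7 utrophin regulators 4 were higher and 2 lower. Gabpa and Gabpb1 were higher by 0.76 (SE 0.18) and 0.72 (SE 0.14), Nrg1, neuregulin 1, was lower by a log2 change of −0.88 (SE 0.21), and Ppargc1a was at least 2.13-fold lower (adjusted p = 3.49e-07). Of the glycosylation genes and regulators named here, Ppargc1a alone passed after median scaling. Pomgnt1 also lost its call with the mean of its kept probes (log2 change −0.32, limma adjusted p = 0.0932).

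Between antimiR and Day1, 3 of 11 linkers and 1 of 9 ligands were higher and 0 of either lower, where 12.9% of all genes were higher and 9.78% lower. Without mimic replicate 1, 5 linkers and 3 ligands were higher and 1 ligand lower. The shares of all genes above do not apply to that fit, whose own shares are not given here, so nothing is read from these counts. The genes that passed with all arrays were Sptbn1 (log2 change 0.71, SE 0.16), Des (0.63, SE 0.18), Itga7 (0.57, SE 0.10) and Bgn (0.88, SE 0.21). Dtnb (−0.56, SE 0.16), Nrg1 (−0.98, SE 0.21), B3galnt2 (−0.65, SE 0.16), Rxylt1 (−0.49, SE 0.10) and Pomt2 (−0.50, SE 0.17) were lower, while Dpm1 (0.48, SE 0.14) and Ets2 (0.42, SE 0.13) were higher. None of these 11 genes passed in limma after median scaling, and only Itga7, Nrg1 and Rxylt1 kept their calls with each array left out in turn. Bgn and Sptbn1 lost theirs without Day1 replicate 3 or antimiR replicate 1, B3galnt2 without antimiR replicate 1, and Dtnb without Day1 replicates 2 or 3 or antimiR replicates 1 or 3. With the mean of their kept probes, Sptbn1 (log2 change 0.27, limma adjusted p = 0.0867) and Dpm1 (0.48, limma adjusted p = 0.0523) also lost their calls. Des, Dpm1, Ets2 and Pomt2 lost theirs without any of the Day1 arrays or antimiR replicates 1 or 2, and Dpm1 and Pomt2 also without antimiR replicate 3, Ets2 and Pomt2 without Day2 replicate 2, and Pomt2 without Day2 replicate 3 or mimic replicate 3.

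Genes with the most similar profile were taken as those with the smallest root mean square difference from a member over the 12 arrays, after each gene was centred on its mean log2 level. For Dag1 these were Ifi35 (0.15), Myorg (0.16) and Des (0.17), for Sgca Selenop (0.15), Tmem53 (0.19) and Ranbp3l (0.20), and for Sgcb Cd164 (0.10), Pcyox1 (0.12) and Prune1 (0.12). Between members the difference was 0.44 for Dag1 and Sgcb, 0.67 for Sgca and Sgcb and 0.71 for Dag1 and Sgca. The genes above were picked as the closest of all tested, so these values cannot be set against theirs. Sgcd and Utrn, whose group means spanned less than 1 on the log2 scale, were left out of this search.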

How the data were processed

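The raw intensity of each probe and the detection score beside it were deposited by the authors on a linear scale, with no background subtraction or normalization recorded per the file headers. The deposited score is headed as a p-value but rises with brightness, so 1 minus the score served as the detection p. A table of processed log2 values was also deposited by the authors; the submitters' processing notes name lumi without a version, and its background step, scale and centring are not given in the sources used here (its median was 6.43 on every array). In rank order, 2 of its columns, Day2 replicates 2 and 3, are exchanged against the scanner table, which leaves the Day2 group unaffected.

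Intensities were background-corrected with limma 3.58.1 (R 4.3.3) by normexp (offset 16; the level of the negative controls was derived from the detection p), quantile-normalized and taken to log2. Of 45281 probes 34885 named a single gene, 18 several and 10378 none, by the platform annotation updated through RefSeq gene identifiers; 19809 probes were kept, and the brightest kept probe stood for its gene. A single limma model with 4 group means, 8 residual and 5.36 prior degrees of freedom and a variance trend gave two-sided tests, adjusted by Benjamini-Hochberg over 10653 genes with a threshold of 0.05; it was tested on simulated data. Where no array of a group was above background, a fold is a lower bound: on each such array the gene was set to the dimmest signal still above background, if that was higher, before group means were compared. The largest share of identical raw values between any pair of arrays was a fraction of 0.00775, so 12 samples were counted. With 3 arrays per group their number limits the precision. How many of all genes separate between groups without overlap was not counted, so such separation is given as description only.

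The members and lists were chosen with earlier results of these data known, as were the settings. All members are described. For each related list and comparison, up to 4 genes with the largest change among those past the threshold are named, and for a member whose group means span at least 1 on the log2 scale, the 3 genes of most similar profile. Alternatives covered background correction, normalization, detection filter, choice of probe, arrays in the model, array weights, variance trend, a replicate block and each array left out; testing every kept probe by itself was added after the data were seen.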

Additional observations from a re-analysis of the deposited data

How the results depend on the processing

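The rise of Dag1, Sgca and Sgcb between Day1 and Day2 passed under all 23 alternatives, with log2 changes of 2.51 to 2.84, 1.74 to 2.47 and 1.43 to 2.15 over these and the other probes. For the mimic against Day1, the count of members that passed (1) became 0 with median scaling, without a detection filter, with only the arrays compared and with the replicate block, and 3 with array weights; with an array left out it ranged from 0 to 3. For antimiR against Day2 it became 1 with median scaling in place of 2, 3 with only the arrays compared and with array weights, and ranged from 2 to 3 with an array left out. For antimiR against Day1 it became 1 with median scaling and without a detection filter in place of 3, and ranged from 0 to 3 with an array left out. The cause of these changes was not tested, except that the unfiltered table holds more genes (19057) and the fit of the compared arrays fewer samples. Utrn and Sgcd, which did not pass, changed sign in some settings: Utrn in antimiR against Day1 (−0.02) was 0.0134 without background correction, 0.00811 with the authors' values and 0.0237 with array weights, and with an array left out it lay between −0.195 and 0.073, in Day2 against Day1 between −0.0753 and 0.193, while Sgcd lay between −0.0534 and 0.198 for the mimic and between −0.0482 and 0.329 for antimiR against Day1. Median scaling moved the median change of all genes to −0.12 for Day2 against Day1, 0.31 for antimiR against Day2 and 0.18 for antimiR against Day1. Under it 1879, 25, 1793 and 201 genes passed in the 4 comparisons, in place of 6088, 902, 5466 and 2413, and the share of calls that were higher was 36% against 51.8% for the mimic, 64.8% against 51.6% for antimiR against Day2 and 78.6% against 56.8% for antimiR against Day1. The replicate block left 3 members called for Day2 against Day1, 2 for antimiR against Day2 and 2 for antimiR against Day1, with 53 genes in all for the mimic. Under it the Sptbn1 and Rxylt1 calls for the mimic (adjusted p = 0.0602 and 0.0819), the Sgcb, Des, Ets2 and Pomt2 calls for antimiR against Day1 and the Sntb2 call for antimiR against Day2 were lost. Deviations of same-numbered arrays correlated at −0.55 to 0.17, and 2 of 12 arrays correlated best with their own number, so the numbers were not taken to pair the samples. Genes called for the mimic in all numbered 4909 with array weights, 590 without the variance trend, 183 without a detection filter and 3 with only the arrays compared, and between 28 and 4017 with an array left out. For antimiR against Day1 they numbered 3793 with only the arrays compared and 4384 with array weights, and between 647 and 3752 with an array left out. Signal over background limits what can be said of Dmd, Sspn, Utrn and Sgcd.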
